A study of Mytilus galloprovincialis with 40 samples.

Results

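Female *Mytilus galloprovincialis* mussels were followed from February to April 2008 through the relative mRNA abundance in their digestive glands. The values come from 8 of the 40 dual-color cDNA microarrays of an annual cycle: 4 arrays that set March against February (Mar/Feb, replicates 1 to 4) and 4 that set April against March (Apr/Mar, replicates 1 to 4). These 8 were chosen by their labels alone. Each array carried total RNA from the gland of 1 animal per month, both animals coming from the Bizerta Lagoon population in Tunisia, and the females were those of the gonad stage most represented in their month. March was labelled with Cy5 in Mar/Feb replicates 1 and 3 and with Cy3 in replicates 2 and 4. April was labelled with Cy5 only in Apr/Mar replicate 3 and with Cy3 in replicates 1, 2 and 4. There was no treatment, and the month of sampling, with everything that changes with it in the lagoon and in the animal, was the only factor that differed between the groups. The sources do not state whether 1 animal was hybridized on more than 1 array, so the p-values given below measure the spread between arrays.

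The digestive gland is the main organ of digestion, nutrient storage and detoxification in bivalves. It surrounds the stomach with blind tubules in which food particles are taken up by digestive cells and enzymes are released by basophilic cells. In temperate mussels it draws on seasonal plankton and supplies the developing gonad with reserves, so that late winter and spring are a period of changing food, temperature and reproductive state. The array measures, for each of 1920 cDNA clones printed in 2 spots each, the log2 ratio of the later over the earlier month, and a positive value means a higher relative abundance in the later month. In whole glands fewer cells of a type and less RNA per cell cannot be told apart. The clones carry position codes (Myt01, a plate and a well) and are not paired here with genes or sequences, so that gene groups, the defining markers of the gland and those of other tissues were not analysed here.

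The 8 arrays were dim, and the Mar/Feb arrays more so than the Apr/Mar arrays. A spot was taken as above background where its mean exceeded the mean local background by 2 SD. Between 13.6% and 22.7% of clone spots passed this in both channels on the Mar/Feb arrays and between 24.6% and 41.5% on the Apr/Mar arrays, against a median of 43.6% on the 32 arrays of the other 10 steps. Over all 8 arrays 134 clones had at least 1 such spot on every array, and 831 had none on any. Duplicate spots gave an r of 0.43 to 0.52 on the Mar/Feb arrays and of 0.74 to 0.81 on the Apr/Mar arrays, across clones of 1 array, which share that array's background.

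A pair of Mar/Feb arrays shared values that belong to single spots. In replicates 2 and 4 the log2 ratio of spot 1 minus that of spot 2, taken clone by clone, correlated with a Spearman rho of 0.25, and the same difference in mean log2 intensity with a rho of 0.44. Among the other 27 pairs of the 8 arrays the highest values were 0.04 and 0.10. The spots of 20 clones lay more than 1.5 apart on both of these replicates, and all 20 lay apart in the same direction, whereas no other pair of the 8 arrays had more than 8 such clones or more than 2 in the same direction. For Myt01-007C12, for example, the spots read 3.90 and -0.02 on replicate 2 and 4.10 and 0.13 on replicate 4. The pair was not a copy throughout. The mean log2 intensity of Myt01-019B03 was 9.90 on replicate 2 and 6.40 on replicate 4, where none of its spots was above background. In the authors' table of log2 ratios the column of replicate 4 held the values of replicate 3 with the sign turned, so that replicate 4 has no second source. Only 1 further pair of the 40 arrays, Dec/Nov replicates 2 and 3, shared spot values in this way (rho of 0.27 and 0.65). Labels name all of these as separate replicates. Each comparison is therefore given with every array counted singly and with both pairs averaged and counted as 1 array each. The averaging was a choice made after the data were seen, and it leaves 3 Mar/Feb measurements. Since replicates 2 and 4 are the Mar/Feb arrays with March in Cy3, it also leaves the dye orientations unbalanced. There is then 1 measurement with March in Cy3 and 2 with March in Cy5.

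Apr/Mar replicate 1 was opposed to the other 3 arrays of its step. Across the 1920 clones its log2 ratios correlated with those of replicates 2, 3 and 4 with r of -0.73, -0.81 and -0.62, while these 3 correlated with each other with r of 0.64 to 0.75. Replicates 2 and 4 carry the same dye labels as replicate 1, and replicate 3 the opposite ones, so the 3 that resemble each other include both dye orientations. Over the 134 clones above background on all 8 arrays the values were -0.85, -0.94 and -0.82 for replicate 1 and 0.76 to 0.91 among the others. The direction of replicate 1 is thus not settled by these data, and Apr/Mar is given with it as labelled, without it, and with its sign turned. In Mar/Feb the 2 arrays with March in Cy5 correlated with r of 0.44 and the 2 with March in Cy3 with r of 0.78, whereas the 4 pairs of opposite orientation lay between -0.16 and -0.04. Over the 134 bright clones every Mar/Feb pair was above 0, at 0.74 and 0.98 within an orientation and at 0.31 to 0.65 between orientations. In the other 10 steps 24 pairs of opposite orientation had a median r of 0.40 over all 1920 clones, between -0.05 and 0.87. The Mar/Feb values to set beside this are those over all clones, -0.16 to -0.04.

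**Figure D1:**
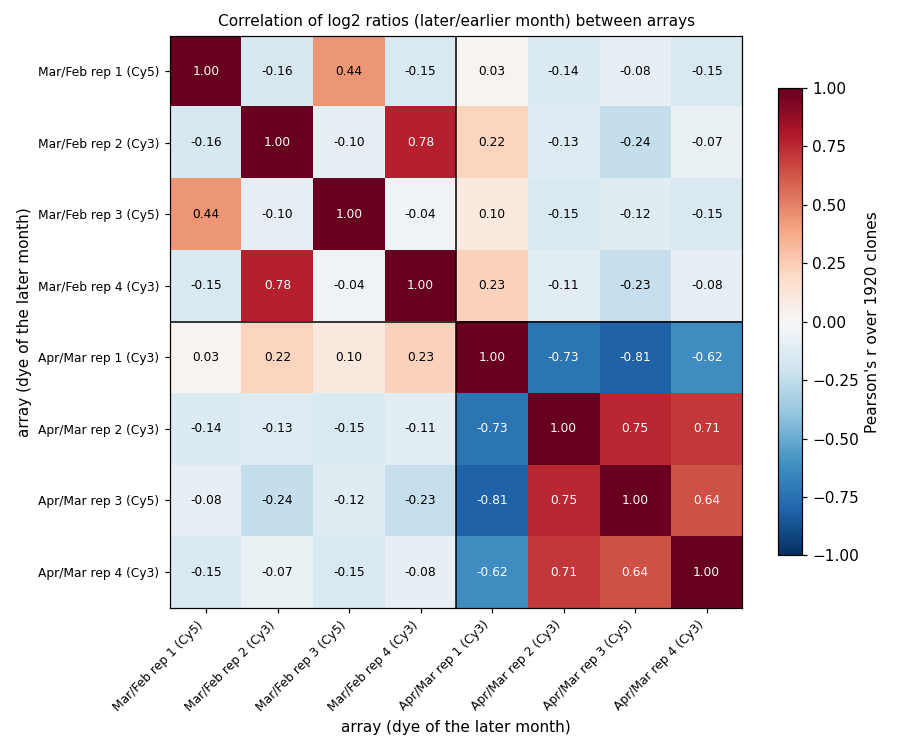
Pearson's r of the log2 ratios (later over earlier month) between each pair of the 8 arrays, over 1920 clones, with the dye of the later month in brackets. Apr/Mar replicate 1 lies at -0.62 to -0.81 with its replicates, and in Mar/Feb, over all clones, pairs of the same dye orientation lie at 0.44 and 0.78 and the others at -0.16 to -0.04, whereas over the 134 bright clones all Mar/Feb pairs are above 0 (not plotted).

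From March to April, with replicate 1 left out, 51 of the 1920 clones passed the test (2.66%), and 42 of them were higher in April (2.19%) and 9 lower (0.469%). The highest clone, Myt01-009E10, was 9.72-fold higher in April, and Myt01-019B03, the lower clone with the highest B, was 4.01-fold lower. The median change of the 42 higher clones was 2.21-fold, with 27 at least 2-fold and 4 at least 4-fold higher. The 9 lower clones fell by a median of 2.81-fold and by up to 9.95-fold, with 7 at least 2-fold lower. The test was limma's moderated test in a model with 1 mean per monthly step, with an adjusted p (Benjamini-Hochberg, over 1920 clones) under 0.05 and a log-odds B above 0 required for a call. Every one of the 51 clones had the same sign on replicates 2, 3 and 4, as did 797 of all 1920 clones (41.5%). The values of the 51 were of similar size on each of these arrays. These same arrays chose the clones, so sign and size are no separate evidence. The medians of the 42 higher clones were 1.06, 1.00 and 1.30 on replicates 2, 3 and 4, and those of the 9 lower clones -1.63, -1.46 and -1.35.

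Myt01-009E10 had log2 ratios of 3.65, 2.61 and 3.59 on replicates 2, 3 and 4 and of -3.18 on replicate 1. Both of its spots gave nearly the same reading on every Apr/Mar array, the largest gap between them on any of the 8 arrays being 0.41. The fit without replicate 1 gave 3.28 ± 0.26 (SE, n = 3 arrays, limma adjusted p 1.38e-10). With the sign of replicate 1 turned it was 3.26 ± 0.22 and with replicate 1 as labelled 1.67 ± 0.54 (limma adjusted p 0.985), so that it was called with replicate 1 left out or turned and was not called as labelled in this fit. Myt01-009E12 had 2.03, 1.21 and 2.13 on replicates 2, 3 and 4 and -1.79 on replicate 1. It was 1.79 ± 0.20 without replicate 1 (limma adjusted p 1.67e-07) and 0.90 ± 0.32 as labelled. This clone was among the brightest on the slides, with a mean intensity at percentile 99.3 of all clones.

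Among the lower clones Myt01-019B03 had log2 ratios of -2.22, -2.05 and -1.74 on replicates 2, 3 and 4 and of 2.25 on replicate 1. Without replicate 1 it was -2.00 ± 0.20 (limma adjusted p 2.23e-08), and as labelled -0.94 ± 0.37 (limma adjusted p 0.998). Its neighbour on the plate, Myt01-019B02, had -1.13, -0.99 and -1.21 on replicates 2, 3 and 4 and 1.03 on replicate 1. It was -1.11 ± 0.14 without replicate 1 (limma adjusted p 3.37e-06). All spots of both clones were above background in both channels on the 4 Apr/Mar arrays. In these 4 clones, the most strongly called in each direction, replicate 1 lay outside the range of the other 3 and on the other side of 0.

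**Figure D2:**
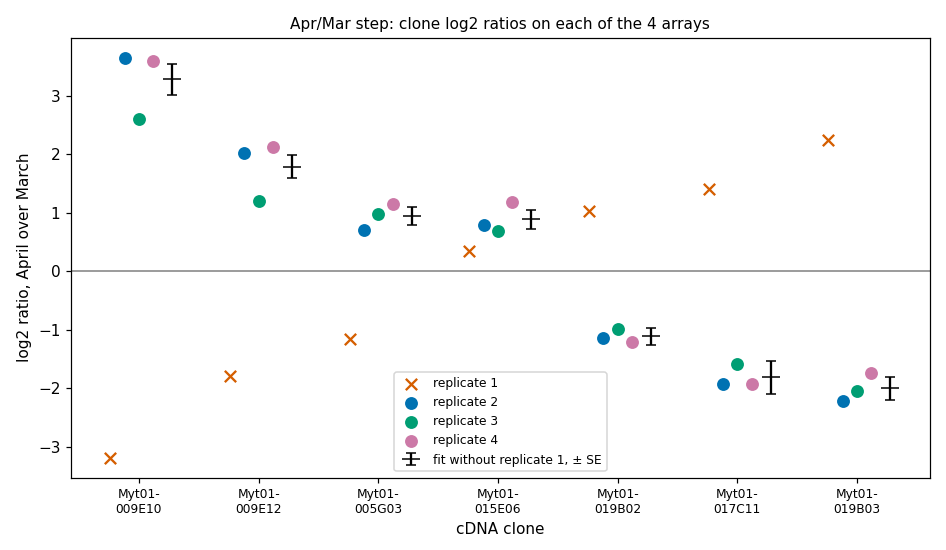
Log2 ratio of April over March (y axis) for 7 clones on each of the 4 Apr/Mar arrays (points, replicate 1 as a cross), with the fitted value without replicate 1 and its SE in black. In 6 of the 7 clones replicate 1 lies on the other side of 0 from replicates 2, 3 and 4, and Myt01-015E06 is the exception.

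The same opposition held over the whole set. Replicate 1 was below 0 in 41 of the 42 higher clones, with a median of -1.22 against a fitted median of 1.14 from the other 3 arrays, and above 0 in all 9 lower clones, with a median of 1.40 against -1.49. These signs restate, for the called clones, the negative correlations of replicate 1 over all clones, and they are no separate evidence. With its sign turned 73 clones were called, 61 higher and 12 lower. Among the 51 clones the higher ones lay at a median brightness percentile of 83.9 and the lower ones at 94.1. Leaving out 1 further Apr/Mar array gave 36 to 37 calls, of which 31 to 35 were among the 51. Averaging the arrays that share spot values left 50, all of them among the 51.

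With all 4 arrays as labelled only 1 clone was called from March to April (0.0521% of 1920). Myt01-015E06 had log2 ratios of 0.35, 0.80, 0.69 and 1.19 on replicates 1 to 4 and was 0.76 ± 0.14 (n = 4 arrays, limma adjusted p 0.0107), a 1.69-fold higher abundance in April. Its positive value on replicate 1 was the mean of 1 spot at -0.99 and 1 at 1.70, while its spots read 0.84 and 0.76, 0.66 and 0.72, and 1.18 and 1.19 on replicates 2, 3 and 4. It was called without replicate 1 as well, at 0.89 ± 0.16, and not with the sign of replicate 1 turned, at 0.58 ± 0.16. The call was also lost without Apr/Mar replicate 2 (limma adjusted p 0.151) or 4 (0.779). Without Apr/Mar replicate 3 or Mar/Feb replicates 2 or 3, or with the shared arrays averaged, its adjusted p stayed between 0.0109 and 0.0386 and B fell below 0. The next higher clone, Myt01-012E01, had values of 1.30, 0.40, -0.06 and 0.37 and was not called (0.50 ± 0.13, limma adjusted p 0.357). With the sign of replicate 1 turned it was -0.15. The lower clones nearest to a call were Myt01-003F01, at -0.24 ± 0.08, with spots above background on only 1 Apr/Mar array, and Myt01-017C11. The latter had -1.93, -1.59 and -1.92 on replicates 2, 3 and 4 and 1.40 on replicate 1, which gave -1.01 ± 0.35 as labelled and -1.81 ± 0.28 without replicate 1, where it was called (limma adjusted p 4.89e-05).

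From February to March more clones passed the test than from March to April as labelled, and fewer than from March to April without replicate 1. With the 4 arrays counted singly 17 clones were called (0.885% of 1920), 15 higher (0.781%) and 2 lower (0.104%) in March, with a median change of 1.61-fold for the higher ones and 1.71-fold for the lower ones. Of these 17, 13 had the same sign on all 4 arrays, as did 377 of all clones (19.6%). With replicates 2 and 4 averaged none of the 17 was called, and 3 other clones were, all lower in March (0.156% of 1920, with 179 at an unadjusted p under 0.05). Leaving out replicate 4 also left 3 clones called and none of the 17. Without replicate 2 there were 12, 10 of them lower and 2 of them among the 17, without replicate 1 there were 26 and without replicate 3 there were 20, all higher. With loess within print-tip blocks 20 higher and 7 lower clones were called.

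The higher clones had their largest values on replicates 2 and 4. The medians of the 15 were 0.30, 1.06, 0.55 and 1.06 on replicates 1 to 4. Myt01-013G08 had log2 ratios of 0.20, 1.16, 0.54 and 1.06 and was 0.74 ± 0.13 with 4 arrays (limma adjusted p 0.00313) and 0.62 ± 0.15 with the pair averaged (limma adjusted p 0.0713). On replicates 2 and 4 its spots read 0.09 and 2.24, and 0.20 and 1.92, so that the second spot carried the value on both. Myt01-012E03 had -0.09, 1.26, 0.47 and 1.09 and was 0.68 ± 0.12 (limma adjusted p 0.00313), or 0.52 ± 0.13 with the pair averaged (limma adjusted p 0.0804). It had no spot above background on replicates 1 and 3. Of the 17 called clones 4 were among the 20 whose spots lay more than 1.5 apart on replicates 2 and 4.

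Of the 2 lower clones Myt01-005F09 was the one with strong signal. It had log2 ratios of -0.63, -1.53, -1.29 and -1.31 on replicates 1 to 4, below 0 on every array and in both dye orientations, and its spots never differed by more than 0.14. Its relative abundance was 2.28-fold lower in March (-1.19 ± 0.28, limma adjusted p 0.0356), and with the pair averaged the value was -1.11 ± 0.33 and was not called (limma adjusted p 0.17). On replicate 4 none of its spots was above background. Myt01-005H10 had -0.13, -0.55, -0.26 and -0.51, for -0.36 ± 0.09 (limma adjusted p 0.039), and had spots above background on replicates 2 and 4 only.

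**Figure D3:**
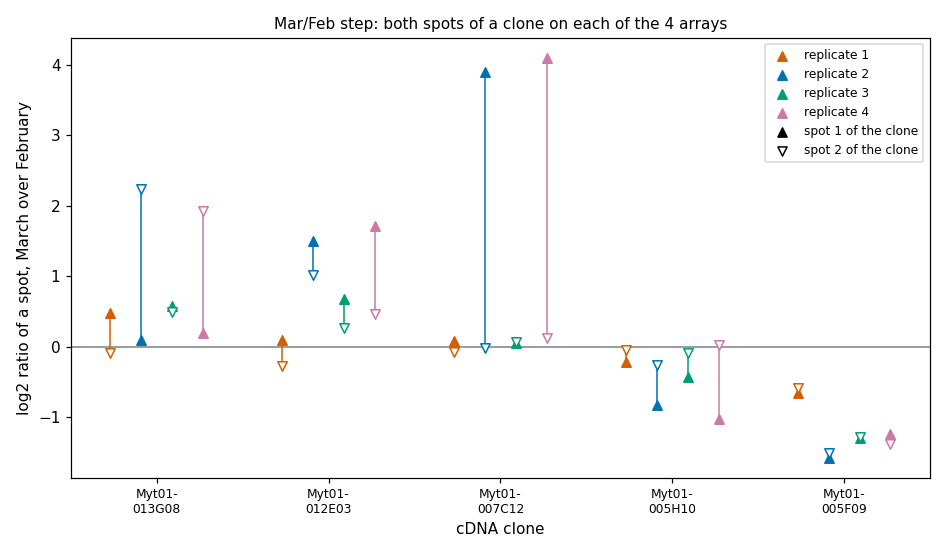
Log2 ratio of March over February (y axis) of each of the 2 spots of 5 clones on the 4 Mar/Feb arrays (filled triangles spot 1, open triangles spot 2, colors the replicates). In Myt01-007C12 and Myt01-013G08 a single spot is high on replicates 2 and 4, and in Myt01-005F09 both spots are below 0 on all 4 arrays.

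The 3 clones called with the pair averaged were Myt01-001E06, Myt01-003D09 and Myt01-007C05, named after their values were seen. Their values were far below 0 on replicates 1 and 3 only. Each was above background in both channels on only 2 arrays. Myt01-001E06 had log2 ratios of -1.45 and -1.11 on replicates 1 and 3 and of 0.31 and 0.05 on replicates 2 and 4. It was -0.79 ± 0.15 with the pair averaged (limma adjusted p 0.0293) and -0.55 ± 0.15 with 4 arrays (limma adjusted p 0.084). The largest value was that of Myt01-007C05, at -3.14 on replicate 1 and -1.54 on replicate 3, against 0.36 and 0.07. Fitted with March in Cy5 alone, the step had 67 calls, 66 of them lower, and with March in Cy3 alone 61 calls, 59 of them higher. Over the 1920 clones the means of the 2 orientations correlated with r of -0.14, as a description. Of the 17 clones called with 4 arrays, 13 of the 15 higher ones were above 0 in both orientation means and both lower ones were below 0 in each, and the orientations were among the values that chose them. Dye orientation, shared spots and the animals hybridized cannot be told apart here, since replicates 2 and 4 are the Cy3 arrays.

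April minus February was taken as the sum of the 2 step means. With all 8 arrays as labelled no clone was called (0% of 1920), with 87 at an unadjusted p under 0.05 in limma and a smallest adjusted p of 0.346. The other settings of limma run as alternatives called 0 or 1, except array weights (87), the 2 orientations of Mar/Feb taken alone (31 and 48), the sign of Apr/Mar replicate 1 turned (25), and the fits without Apr/Mar replicate 1 (21), Mar/Feb replicate 1 (12) or Mar/Feb replicate 3 (5). Without Apr/Mar replicate 1 the 21 clones called made up 1.09% of all clones, 17 of them higher (0.885%) and 4 lower (0.208%) in April than in February. The 17 were higher by a median of 2.47-fold and up to 12.8-fold, with 12 at least 2-fold. The 4 lower clones changed by a median of 2.53-fold and by up to 9.0-fold. With the shared arrays averaged 17 were called, 14 higher and 3 lower, and 16 of these were among the 21. When Apr/Mar replicate 2 or 4 was left out too, 6 or 5 remained, all among the 21, and with median centring in place of loess 2 higher and 0 lower were called.

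By the medians, nearly all of this difference lay in the second step. Over the 17 higher clones the Mar/Feb step had a median of 0.04, between -0.74 and 0.77, and the Apr/Mar step without replicate 1 a median of 1.07, between 0.39 and 3.28. Over the 4 lower clones the medians were 0.09 and -1.56. Myt01-008H01, a higher clone, had the larger value in the first step, at 0.77 in Mar/Feb and 0.39 in Apr/Mar without replicate 1. These step values add up to the difference by construction and share the March animals' month, so they are given as a description. The Mar/Feb arrays were also the dimmer ones, which limits what the first step can show.

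Myt01-009E10 was the most strongly called clone. From February to March its log2 ratios were 0.45, 0.31, 0.30 and 0.54 on the 4 Mar/Feb arrays, with an SD of 0.12. It was not called there (0.40 ± 0.54, SE). That SE came from the fit as labelled, where all steps shared the spread and Apr/Mar replicate 1 was included. On Apr/Mar replicates 2, 3 and 4 the clone was higher in April, and on Apr/Mar replicate 1 it was lower. April minus February was 3.68 ± 0.34 in the fit without Apr/Mar replicate 1 (12.8-fold, limma adjusted p 9.24e-09). As labelled the value was 2.07 ± 0.77 and was not called (limma adjusted p 0.946). With shared arrays averaged it was 3.67 ± 0.37. In the May/Apr step, which closes the loop by setting the May before against this April, it had a mean of -1.24 ± 0.26 (SD, n = 4 arrays), below 0 on every array. Myt01-005G03 had 0.42, -0.18, 0.17 and 0.08 in Mar/Feb, where none of its February spots was well above background, and 0.71, 0.98 and 1.15 in Apr/Mar replicates 2, 3 and 4. It was 1.07 ± 0.19 without Apr/Mar replicate 1 (limma adjusted p 0.00216), where its value was -1.15, and 0.54 ± 0.29 as labelled. In May/Apr its mean was -0.89 ± 0.31 (SD, n = 4 arrays).

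On the lower side Myt01-019B03 was -1.59 ± 0.26 (limma adjusted p 9.12e-04) and Myt01-019B02 was -1.08 ± 0.19 (limma adjusted p 0.00166), each without Apr/Mar replicate 1. As labelled they were -0.53 ± 0.52 and -0.55 ± 0.29, neither of them called. In the Mar/Feb step neither was called, at 0.41 ± 0.37 and 0.03 ± 0.20 in the fit as labelled. Their SDs over the Mar/Feb arrays were 0.44 and 0.16. As labelled the clones nearest to a call were Myt01-012E03 (0.69 ± 0.17) and Myt01-007C12 (1.11 ± 0.28) on the higher side, each with a limma adjusted p of 0.346. On the lower side they were Myt01-005H10 (-0.48 ± 0.13, limma adjusted p 0.36) and Myt01-005F09 (-1.10 ± 0.39, limma adjusted p 0.927). Myt01-007C12 and Myt01-005H10 had no spot above background in any channel of the 4 Apr/Mar arrays. The value of Myt01-007C12 came from the single spot shared by Mar/Feb replicates 2 and 4, and with these averaged it was 0.78 ± 0.26 (limma adjusted p 0.831).

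**Figure D4:**
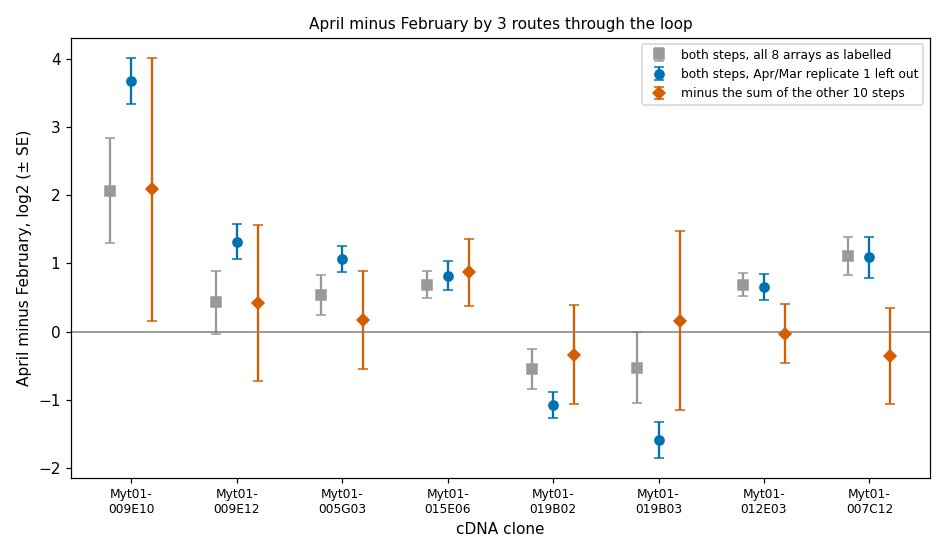
April minus February on the log2 scale (y axis, ± SE) for 8 clones, from all 8 arrays as labelled, with Apr/Mar replicate 1 left out, and as minus the sum of the other 10 steps of the loop. Leaving out replicate 1 moves Myt01-009E10 from 2.07 to 3.68, and the third estimate, from 32 other arrays, has far wider errors.

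The loop gave a second estimate of the same difference from arrays outside these 8, as minus the sum of the other 10 steps. These lead from this April to the May before, by the step that closes the loop, and from that May on to the same February. It was less precise, with a median SE of 0.47 against 0.20 for the direct sum without Apr/Mar replicate 1. Over the 1920 clones the direct and the indirect estimates correlated with r of 0.26 as labelled, 0.36 without replicate 1 and 0.38 with its sign turned, as descriptions across clones that share arrays. Whether both estimates also share animals of February and April is not stated, so they may not be independent. Of the 21 called clones 19 had the same sign in both estimates (90.5%), against 1080 of all 1920 clones (56.2%). These 2 shares are not like for like. The 21 were chosen by their direct values and were bright, at median percentiles of 86.5 (higher) and 95.8 (lower). Over the 17 higher clones the indirect values had a median of 0.88, between 0.00 and 2.89, and over the 4 lower ones a median of -0.62, between -4.44 and 0.16. For Myt01-009E10 the indirect value was 2.09 ± 1.93, and for Myt01-019B03 it was 0.16 ± 1.31, each less than 2 SE from 0. The sum of all 12 steps, which is 0 in a loop that closes, was not called for any clone in limma, with replicate 1 as labelled (144 at an unadjusted p under 0.05) or without it (134). The sum had a median SE of 0.51 in both fits. It lay at least 2-fold from 0 in 245 clones as labelled and in 230 without replicate 1. The absence of calls thus does not show that the loop closes. Array weights called 24 and 21, and print-tip loess without replicate 1 called 1.

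**Figure D5:**
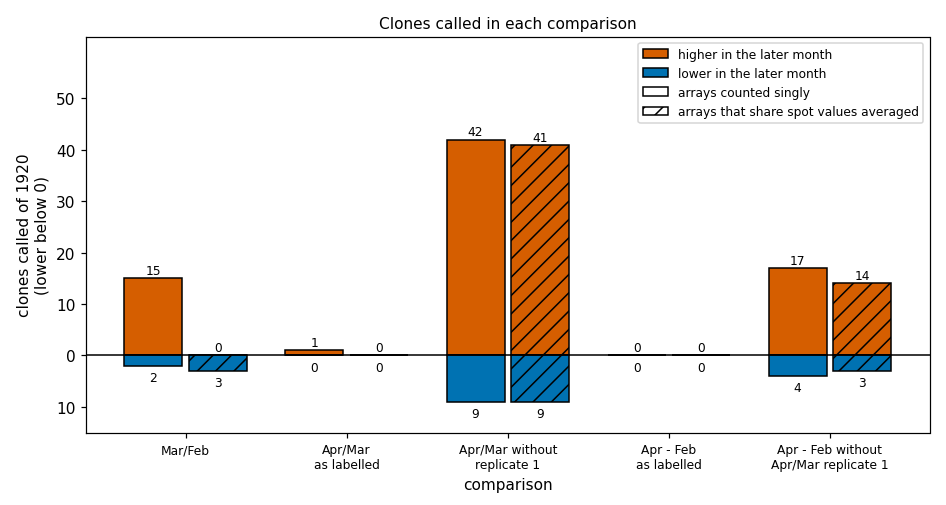
Number of the 1920 clones called (y axis, higher above 0 and lower below 0) in 5 comparisons, with every array counted singly (plain bars) and with arrays that share spot values averaged (hatched bars). The Mar/Feb calls go from 15 higher and 2 lower to 0 and 3, while Apr/Mar without replicate 1 goes from 42 and 9 to 41 and 9. Averaging also leaves the dye orientations of Mar/Feb unbalanced.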

How the data were processed

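The authors hybridized RNA of single animals to cDNA arrays and deposited the intensity of each spot per dye (mean foreground, median local background), read with a GenePix program and without normalization. They also deposited log2 ratios normalized in limma, of which 38 of 40 columns could be recomputed to within 1e-04 (normexp, offset 50, loess over all spots). The scanner intensity values were used, and the deposited log2 ratios served as an alternative.

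Of 4560 spots, 3840 held clones. Background was corrected by normexp (offset 50), log2 ratios were normalized by a global loess curve through clone spots only, turned to later over earlier month by the dye labels, and the 2 spots were averaged. No scaling between arrays and no filter were applied. In limma 3.58.1 (R 4.3.3) 1 mean per step was fitted to all 40 arrays (28 residual degrees of freedom, 27 without Apr/Mar replicate 1). A clone was called at an adjusted p under 0.05 with B above 0, the rule of the study's methods. April minus February was a contrast in this fit. The fit was tested on simulated data with independent normal errors and with changes in Mar/Feb only. These held no dye effect, shared spots or opposed array, so that test does not bear on such faults. The number of arrays limits the precision.

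Alternatives changed the background correction, the loess, the scaling, a filter on dim clones, the arrays fitted, a dye term, array weights, the call rule, the sign of 1 array or a replicate block, used the deposited ratios, or left out each array in turn.

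Named clones were the 2 with the highest B in each direction per comparison. The comparisons, the rule for named clones and the alternatives were chosen with earlier results of these data known, and averaging of arrays was added after seeing them. Same-numbered arrays of the 2 steps did not deviate together (r of 0.07, 0.03, -0.10 and -0.04 over clones). These deviations were taken as labelled, with Apr/Mar replicate 1 included. They do not settle whether same-numbered arrays share an animal.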

Additional observations from a re-analysis of the deposited data

Results flagged for a closer look

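In 34 sets of 4 replicate values (14 named clones and 3 quality measures in each step), 6 had 1 array far from the other 3 by Dixon's criterion. Chance picks about 1 set in 20, a rate that does not apply to 4 of the 6. These were all Apr/Mar replicate 1, which was known to run against its replicates and was left out where 3 of the 4 clones were chosen, so that they count as 1 pattern. Its log2 ratio for Myt01-009E10 was -3.18, against 2.61 to 3.65 on the other 3 arrays. For Myt01-017C11 it was 1.40, against -1.93 to -1.59, and for Myt01-019B03 2.25, against -2.22 to -1.74. For Myt01-019B02 it was 1.03, against -1.21 to -0.99.

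The other 2 concerned array quality. The duplicate spots of Mar/Feb replicate 1 correlated with r of 0.43, against 0.51 to 0.52 on the other Mar/Feb arrays. The SD of the log2 ratios over clones was 0.33 on Apr/Mar replicate 3, against 0.37 to 0.38 on the other Apr/Mar arrays.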

How the results depend on the processing

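The 51 Apr/Mar calls without replicate 1 stayed within 1.5 times under all alternatives run except a fit to the 8 arrays alone (79) and array weights (146), and lay at 36 to 50 with a further array left out. The other counts moved more. In Mar/Feb (17) there were 0 calls with median centring, the authors' log2 ratios or a fixed replicate block, 3 with the shared arrays averaged, 7 without background correction, 9 with loess over all spots or a filter on dim clones, 27 with print-tip loess, 67 and 61 with 1 dye orientation, 118 with array weights, and 3 to 26 with an array left out. In Apr/Mar as labelled (1) there were 0 with plain background subtraction, median centring, the 8 arrays alone, a dye term, the fixed replicate block or shared arrays averaged, 73 with the sign of replicate 1 turned, 123 with array weights, and 0 to 51 with an array left out.

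April minus February as labelled (0) had 1 call with plain background subtraction or print-tip loess, 25 with the sign turned, 31 and 48 with 1 Mar/Feb orientation, 87 with array weights, and 0 to 21 with an array left out. Without Apr/Mar replicate 1 (21) it had 2 with median centring, 10 with plain subtraction, 12 with no background correction, 13 with the dim filter or the authors' log2 ratios, 33 with the fixed replicate block, 34 with print-tip loess, 37 and 47 with 1 orientation, 55 with the 8 arrays alone, 116 with array weights, and 5 to 25 with an array left out. The loop sum as labelled (0) had 4 with B alone and 24 with array weights, and without replicate 1 (0) it had 2, 21, and 1 with print-tip loess, and 0 with any array left out. The cause of these shifts was not tested. Of 480 values of named clones under alternatives 409 kept direction and call, 56 lost the call, 14 gained it and 1 changed direction (Myt01-012E01 in Apr/Mar, at -0.15 with the sign turned). The authors' log2 ratios were used in 38 columns, so that Mar/Feb replicate 4 was dropped as well, and the fixed block was fitted to the 8 arrays alone. A block of correlated replicate numbers (16 calls in Mar/Feb, 53 in Apr/Mar without replicate 1) changed no count by over 1.5 times. Whether the numbers pair arrays by animal was not settled. Signal over background limits what the Mar/Feb arrays can show, with 13.6% to 22.7% of clone spots above it in both channels.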
